A study of Mus musculus with 3 samples.

Results

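Pmepa1, Skil, Ski, Tgif1, Ldlrad4, Tgfbi and Bhlhe40 were listed as target and feedback genes of SMAD2 and SMAD3, and several of their products act back on the pathway. They were taken by symbol, 7 of 31053 gene rows, and were followed in single cells of masses that formed in CD1 mice, an outbred strain, outside the skeleton. All masses were taken on day 5. The first group had Matrigel, a gel rich in basement membrane proteins, with recombinant human BMP2, which drives cartilage and bone formation, and was treated with an activin A neutralizing antibody (nAct Ab). The second group had the same BMP2 implants with control IgG, and the third had Matrigel alone. These 3 groups, with 1 library each, are called the antibody, IgG and Matrigel libraries. No IgG is named for the third group, so the part of BMP2 and that of IgG cannot be told apart. For age, sex and the number of animals behind a library, the labels used here give no value.

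Activin A and the TGF-beta ligands bind type II receptors, which recruit and switch on type I receptors. The type I receptors phosphorylate SMAD2 and SMAD3, which join SMAD4, enter the nucleus and bind short DNA elements beside other transcription factors. Several of the listed genes encode inhibitors of this pathway. PMEPA1 and LDLRAD4 are membrane proteins that hold SMAD2 and SMAD3 away from the receptor. SKI and SKIL (SnoN) are corepressors of the SMAD complex, and TGIF1 is a homeodomain corepressor that binds SMAD2. TGFBI is a secreted matrix protein that binds collagens and integrins, and BHLHE40 is a transcriptional repressor of the basic helix-loop-helix family that many signals raise, hypoxia among them.

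The promoters are shown for Tgfbi, Ski and Tgif1, the only genes of the 7 with a window in the RefSeq tables used here. RefSeq promoter windows (build GRCm38.p6, 250 bases before to 50 after the start) were matched for 3 of the 7 genes. Capitals mark CAGAC or its reverse complement GTCTG, the letters of the SMAD-binding element.
Tgfbi, chr13:56609336-56609635, plus strand: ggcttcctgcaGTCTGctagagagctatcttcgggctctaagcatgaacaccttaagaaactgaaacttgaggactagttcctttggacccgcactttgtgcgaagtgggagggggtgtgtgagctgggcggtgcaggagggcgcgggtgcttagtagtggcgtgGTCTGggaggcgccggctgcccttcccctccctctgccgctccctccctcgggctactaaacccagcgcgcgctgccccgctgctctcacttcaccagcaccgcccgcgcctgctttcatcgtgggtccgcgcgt
Ski, chr4:155222486-155222785, minus strand: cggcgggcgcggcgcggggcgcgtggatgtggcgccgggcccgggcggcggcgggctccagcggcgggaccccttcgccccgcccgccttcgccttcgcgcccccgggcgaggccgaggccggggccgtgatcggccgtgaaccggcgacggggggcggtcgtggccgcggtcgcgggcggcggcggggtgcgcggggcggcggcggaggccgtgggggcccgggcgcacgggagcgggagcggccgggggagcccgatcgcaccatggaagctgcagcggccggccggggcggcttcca
Tgif1, chr17:70853483-70853782, minus strand: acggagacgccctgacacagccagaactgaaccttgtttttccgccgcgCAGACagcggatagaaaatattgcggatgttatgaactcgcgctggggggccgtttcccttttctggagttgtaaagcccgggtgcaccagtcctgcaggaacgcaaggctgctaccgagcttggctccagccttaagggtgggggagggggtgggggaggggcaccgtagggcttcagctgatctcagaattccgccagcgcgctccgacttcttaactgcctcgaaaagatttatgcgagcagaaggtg
The Tgfbi window held 2 matches, 239 and 85 bases before the start, the Ski window 0, and the first of 5 annotated Tgif1 windows 1, at 201 bases before the start; the other Tgif1 windows held 0 to 2. These 5 letters stood in 49.6% of 32851 promoters of the same length, searched on both strands, so a match is common. GTCTAGAC, the palindrome of GTCT and AGAC that SMAD3 and SMAD4 bind, was in 0.213% of promoters and in none of the windows of these 3 genes. CACGTG, the E-box that BHLHE40 binds, was in 7.15% of promoters and in none of these windows. In the GRCm38 annotation (GENCODE M21) Pmepa1 (ENSMUSG00000038400) lies on chromosome 2, 173224458 to 173276533, minus strand, and Skil (ENSMUSG00000027660) on chromosome 3, 31095058 to 31122577, plus strand. Bhlhe40 (ENSMUSG00000030103) lies on chromosome 6, 108660629 to 108666925, plus strand, and Tgfbi (ENSMUSG00000035493) on chromosome 13, 56609523 to 56639562, plus strand. All 7 are annotated as protein-coding.

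The libraries held 38163880 UMIs (antibody), 46317250 UMIs (IgG) and 44252421 UMIs (Matrigel), where a UMI is a molecular tag that counts 1 captured transcript. After filters on genes, UMIs and mitochondrial share and removal of likely doublets, 5682 antibody, 5674 IgG and 8542 Matrigel cells were kept. Mesenchymal cells had at least 1% of UMIs from Col1a1, Col1a2 and Col3a1, and numbered 592 in the antibody, 1478 in the IgG and 1982 in the Matrigel library. Macrophages had less collagen and a detected Csf1r or Adgre1, and numbered 2999 (antibody), 3052 (IgG) and 5554 (Matrigel). Dendritic cells (antibody 87, IgG 146, Matrigel 138) and T cells (antibody 855, IgG 190, Matrigel 68) needed at least 2 detected genes of their own. Levels are in CPM, UMIs scaled to the same fixed total in each class and library. The 13 listed mesenchymal markers summed to 12919 (antibody), 13653 (IgG) and 19965 (Matrigel) CPM in mesenchymal cells and to 58.4 (antibody), 209.7 (IgG) and 177 (Matrigel) CPM in macrophages. The 13 macrophage markers summed to 26337 (antibody), 24474 (IgG) and 29038 (Matrigel) CPM in macrophages and to 205 (antibody), 241 (IgG) and 340.2 (Matrigel) CPM in mesenchymal cells. Csf1r and Adgre1 are among these 13 and defined the class, so their part was set in advance. Lyz2, a marker that defined no class, was at 11531 (antibody), 9068 (IgG) and 11589 CPM (Matrigel) in macrophages. In mesenchymal cells Lyz2 was at 64.1 (antibody), 74.2 (IgG) and 109 CPM (Matrigel). On the mesenchymal markers and Lyz2, both classes matched their names. Dendritic cells also held macrophage markers, at 6360 (antibody), 6599 (IgG) and 3775 (Matrigel) CPM, with Adgre1 at 0 because the class was defined without it. Few barcodes were shared between libraries: 7 between antibody and IgG, 19 between IgG and Matrigel and 16 between antibody and Matrigel.

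Groups had 1 library each, hence no replicates, and nothing was tested. The 95% intervals given with levels and ratios are for counting error and leave out differences between animals or preparations. A gene counts as higher or lower where its CPM differed by 1.5-fold or more and 1 of both libraries had 10 or more UMIs. Both comparisons use the IgG library, so their values are not independent. Beside the first count in each class and comparison stands the share of all genes past the same ratio, which is also the background for the other lists.

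**Figure D1:**
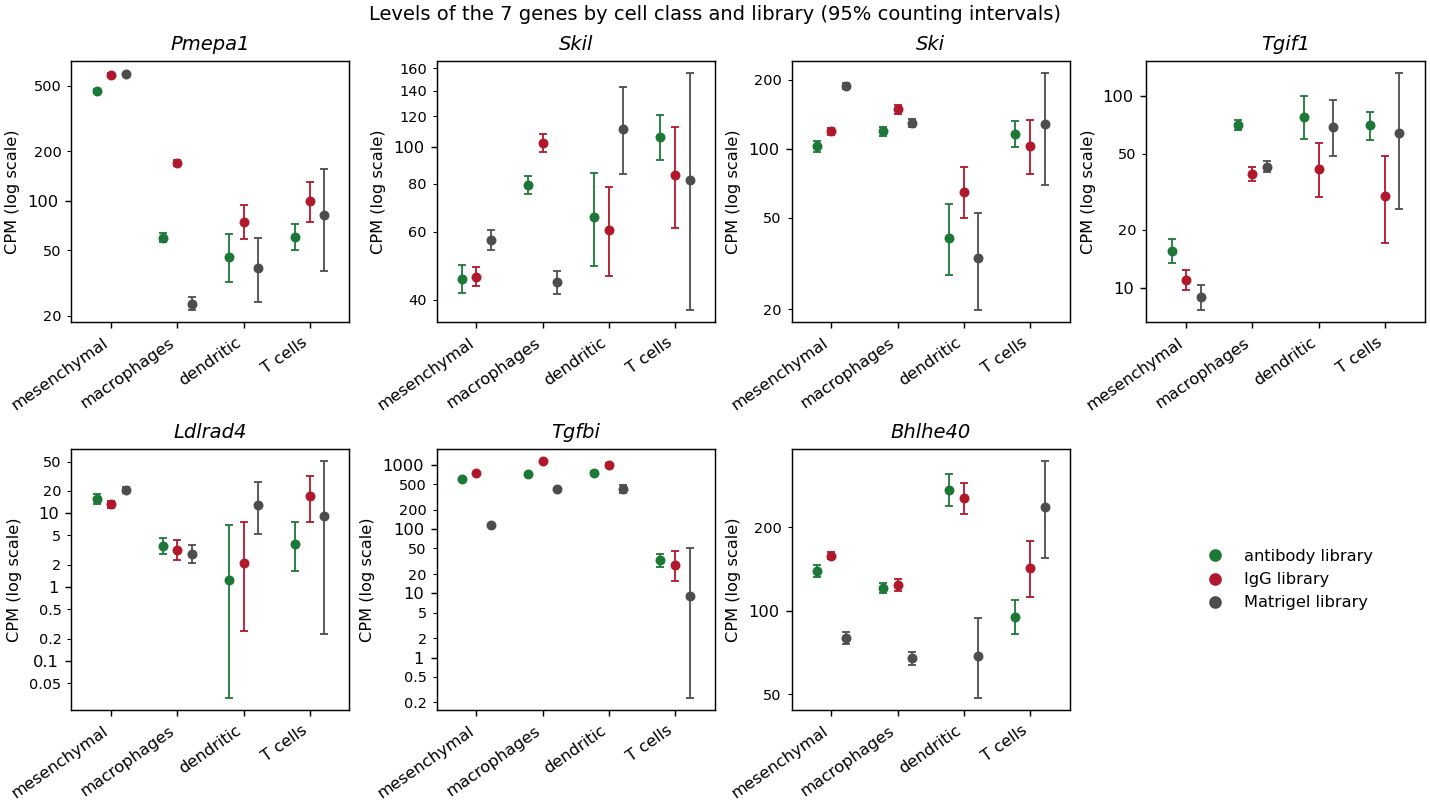
Level of each gene (CPM, log scale) in the 4 cell classes of the antibody, IgG and Matrigel libraries, 1 point per library with its 95% counting interval. Pmepa1 is highest in mesenchymal cells of every library, Tgif1 is lowest there, and in macrophages Pmepa1 is at 59.6 CPM (antibody), 169 CPM (IgG) and 23.7 CPM (Matrigel).

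Antibody and IgG libraries were compared to see how the genes stood when activin A was neutralized in BMP2 masses. In macrophages, Pmepa1 and Tgfbi were lower in the antibody library, Tgif1 was higher, and Bhlhe40 was close to equal. In mesenchymal cells, the class that held nearly all Inhba transcripts, none of the 7 genes differed by 1.5-fold over the class as a whole. Some did within subsets of the class, given below.

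Pmepa1 stood at 59.6 CPM in antibody macrophages (56.0 to 63.4, 1022 UMIs), 169 CPM in IgG macrophages (162 to 176, 2269 UMIs) and 23.7 CPM in Matrigel macrophages (21.6 to 26.0, 456 UMIs). The antibody level was 2.84-fold below the IgG level (ratio 0.352, interval 0.327 to 0.3795) and lay between those of the other libraries. Tgfbi was at 717.5 CPM in antibody, 1135 CPM in IgG and 418 CPM in Matrigel macrophages, which made it 1.58-fold lower in the antibody than in the IgG library (ratio 0.632, 0.617 to 0.647). Tgif1 went the other way, at 70.3 CPM in antibody macrophages against 39.2 CPM in IgG and 42.8 CPM in Matrigel macrophages, and was 1.79-fold higher than in the IgG library (1.62 to 1.99). So 1 of 7 genes was higher and 2 were lower, where 19.3% of 12887 genes were past the ratio (7.02% higher, 12.3% lower). Their median log2 ratio was -0.32, and that of all genes was -0.12. Under median-of-ratios scaling, which moved all genes of this comparison up by 0.12 on the log2 scale, Tgfbi was at a ratio of 0.688 and no longer past 1.5-fold, and Pmepa1 was at 0.384.

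Of the other corepressors, Skil and Ski were closer to equal. Skil was at 79.5 CPM in antibody, 102 CPM in IgG and 44.3 CPM in Matrigel macrophages (antibody to IgG ratio 0.778, 0.721 to 0.839). Ski was at 119 (antibody), 149 (IgG) and 129 CPM (Matrigel) with an antibody to IgG ratio of 0.799 (0.751 to 0.851). Both were thus lower in the antibody library by more than the counting error and by less than 1.5-fold. Bhlhe40 was at 121 CPM in antibody, 124 CPM in IgG and 67.5 CPM in Matrigel macrophages, a ratio of 0.972 between the first pair (0.911 to 1.04). Ldlrad4 was low in macrophages, with 3.62 (antibody), 3.21 (IgG) and 2.81 CPM (Matrigel) from 62 (antibody), 43 (IgG) and 54 UMIs (Matrigel).

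In mesenchymal cells Pmepa1 was at 462 CPM in antibody, 584 CPM in IgG and 586 CPM in Matrigel cells. It was lower in the antibody than in the IgG cells by less than the 1.5-fold threshold (ratio 0.792, 0.769 to 0.816). Tgfbi was at 615 CPM in antibody, 738 CPM in IgG and 116 CPM in Matrigel cells (antibody to IgG ratio 0.833, 0.812 to 0.855). Tgif1 was at 15.6 (antibody), 10.99 (IgG) and 8.92 CPM (Matrigel), the gene with the highest antibody to IgG ratio of the 7 (1.42, 1.18 to 1.71). The remaining ratios were 0.862 for Ski, 0.880 for Bhlhe40, 0.987 for Skil and 1.18 for Ldlrad4, and the intervals of Skil and Ldlrad4 included 1. Over the whole class none of 7 genes was past 1.5-fold, where 22.6% of 14009 genes were (9.9% higher, 12.7% lower). The median log2 ratio of the 7 genes was -0.18, against -0.07 for all genes.

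Tgif1 was higher in the antibody than in the IgG library in each of the 4 classes, at ratios of 1.42 in mesenchymal cells, 1.79 in macrophages, 1.87 in dendritic cells and 2.34 in T cells. It was past 1.5-fold in the last 3. Genes that respond to tissue handling (dissociation and immediate early genes, such as Dusp1, a MAP kinase phosphatase) were higher along with it: 12 of 19 in mesenchymal cells, 12 of 19 in macrophages, 8 of 19 in dendritic cells and 14 of 19 in T cells, with 0 lower in any of these. Their part in the Tgif1 difference was not tested.

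**Figure D2:**
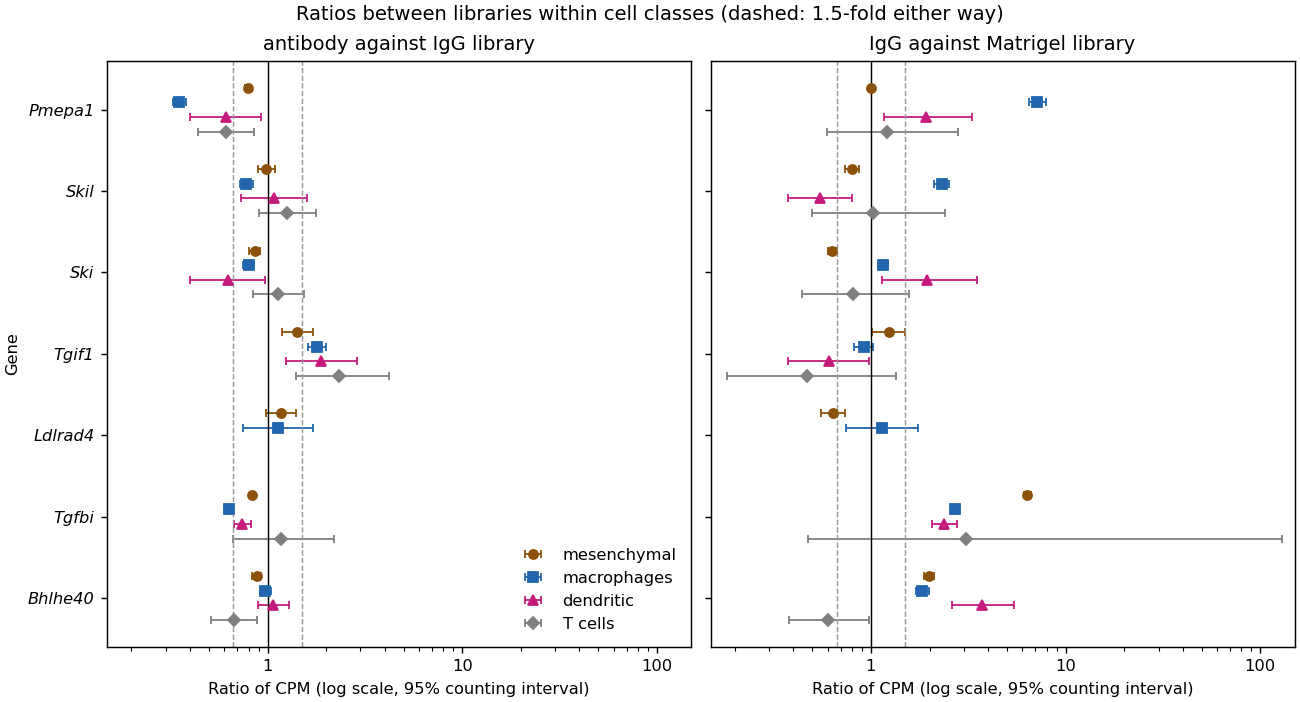
Ratio of CPM (log scale) for each gene in 4 cell classes, with 95% counting intervals, for the antibody against the IgG library (left) and the IgG against the Matrigel library (right). Pmepa1 in macrophages is at 0.352 on the left and 7.14 on the right, and Tgif1 is above 1 in all 4 classes on the left.

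In antibody dendritic cells, Tgif1 was higher than in the IgG library, and Pmepa1 and Ski were lower, but the direction of Pmepa1 depended on macrophage transcripts in this class. Pmepa1 was at 45.7 (antibody), 74.5 (IgG) and 38.9 CPM (Matrigel) (antibody 37, IgG 70 and Matrigel 21 UMIs), a ratio of 0.613 between antibody and IgG (0.40 to 0.926). Ski was at 40.7 CPM in antibody, 64.95 CPM in IgG and 33.3 CPM in Matrigel cells, a ratio of 0.627 (0.398 to 0.974). Tgif1 was at 77.8 (antibody), 41.5 (IgG) and 68.5 CPM (Matrigel). That is 1 gene higher and 2 lower of 6 measured, where 26.9% of 8108 genes were past the ratio (9.48% higher, 17.4% lower). Tgfbi (antibody 747, IgG 1005 and Matrigel 422 CPM), Skil (antibody 65.4, IgG 60.7 and Matrigel 111 CPM) and Bhlhe40 (antibody 273, IgG 254.5 and Matrigel 68.5 CPM) did not reach 1.5-fold between antibody and IgG, and Ldlrad4 had 1 (antibody), 2 (IgG) and 7 UMIs (Matrigel). Ski was not past 1.5-fold when each cell weighed the same (0.795). With macrophage transcripts subtracted at the median share of the macrophage markers, 29.9 CPM of Pmepa1 were left in antibody and 19.4 CPM in IgG cells, which turned the ratio to 1.54, and Skil was at 1.62, Tgif1 at 2.06 and Ski at 0.558.

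T cells carried few UMIs outside the antibody library, in which Pmepa1 was lower and Tgif1 higher than in the IgG library. Pmepa1 was at 60.4 CPM in antibody, 99.2 CPM in IgG and 82.0 CPM in Matrigel T cells (antibody 125, IgG 53 and Matrigel 9 UMIs), an antibody to IgG ratio of 0.609 (0.438 to 0.856). Tgif1 was at 70.1 (antibody), 29.96 (IgG) and 63.8 CPM (Matrigel) (antibody 145, IgG 16 and Matrigel 7 UMIs). Of 6 measured genes 1 was higher and 1 lower, where 38.2% of 9489 genes were past the ratio (14.6% higher, 23.6% lower), so the count was below the background share. Pmepa1 was at 0.718 and not past 1.5-fold under median-of-ratios scaling, which moved all genes of this comparison up by 0.24 on the log2 scale, and at 0.857 without the 10 cells with most of its UMIs. Ratios of Skil (1.26), Ski (1.13) and Tgfbi (1.17) had intervals that included 1, and Bhlhe40 stood at 95.2 CPM in the antibody against 142 CPM in the IgG T cells (ratio 0.669, 0.511 to 0.884). Of 18 measured hypoxia and glycolysis genes, 13 were lower and 0 higher in the same comparison. Their part in the Bhlhe40 difference was not tested. Ldlrad4 had 8 (antibody), 9 (IgG) and 1 UMIs (Matrigel).

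IgG and Matrigel libraries were compared to see how the genes stood with BMP2 and control IgG. In macrophages, Pmepa1, Tgfbi, Skil and Bhlhe40 were all higher in the IgG library and none of the 7 was lower. In mesenchymal cells Tgfbi and Bhlhe40 were higher, Ski and Ldlrad4 were lower, and Pmepa1 was close to equal over the class as a whole.

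From the levels above, Pmepa1 was 7.14-fold higher in IgG than in Matrigel macrophages (6.46 to 7.92), Tgfbi 2.72-fold (2.65 to 2.79), Skil 2.31-fold (2.12 to 2.52) and Bhlhe40 1.84-fold (1.71 to 1.98). Ski (1.15, 1.08 to 1.22), Tgif1 (0.917, 0.821 to 1.03) and Ldlrad4 (1.14, 0.747 to 1.74) were not past 1.5-fold. The count was 4 of 7 higher and 0 lower, where 26.4% of 13118 genes were past the ratio (12.9% higher, 13.5% lower). The median log2 ratio of the 7 genes was 0.88, beside -0.01 for all genes. Of 20 hypoxia and glycolysis genes, 15 were higher and 0 lower in the same macrophages, and their part in the Bhlhe40 difference was not tested.

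In mesenchymal cells the IgG to Matrigel ratio was 6.36 for Tgfbi (6.08 to 6.65, from 19874 UMIs in IgG and 2186 UMIs in Matrigel cells) and 1.98 for Bhlhe40 (1.86 to 2.10), whose levels were 139 CPM in antibody, 158 CPM in IgG and 79.97 CPM in Matrigel cells. Ski was at 103 (antibody), 119 (IgG) and 188 CPM (Matrigel), 1.58-fold lower in IgG than in Matrigel cells (ratio 0.634, 0.604 to 0.665). Ldlrad4 was at 15.6 (antibody), 13.3 (IgG) and 20.8 CPM (Matrigel), 1.57-fold lower (ratio 0.638, 0.551 to 0.739). Pmepa1 had a ratio of 0.996 (0.972 to 1.02), Skil, at 45.3 (antibody), 45.9 (IgG) and 57.3 CPM (Matrigel), one of 0.801 (0.738 to 0.870), and Tgif1 one of 1.23 (1.02 to 1.497). In all, 2 genes were higher and 2 lower of 7, where 37.7% of 14339 genes were past the ratio (16.6% higher, 21.1% lower). Of the 20 hypoxia and glycolysis genes, 13 were higher and 1 was lower in these cells, and of 19 handling genes 1 was higher and 14 were lower. The part of either list in these differences was not tested.

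The share of macrophages with a Pmepa1 UMI was 20.5% in the antibody, 33.6% in the IgG and 6.70% in the Matrigel library at median depths of 4791 (antibody), 3612 (IgG) and 3076 UMIs (Matrigel). With each cell thinned to 1000 UMIs, which left out 82 (antibody), 112 (IgG) and 233 (Matrigel) shallower cells, it was 5.04% in antibody (4.27 to 5.90), 14.05% in IgG (12.8 to 15.4) and 2.61% in Matrigel macrophages (2.20 to 3.08). Postn, a matrix gene of mesenchymal cells that macrophages are not expected to make, was found in 1.20% (antibody), 5.34% (IgG) and 2.35% (Matrigel) of the same thinned macrophages, and before thinning in 6.54% (antibody), 17.99% (IgG) and 7.004% (Matrigel). The Pmepa1 share was above the Postn share in antibody and IgG macrophages and near it in Matrigel macrophages, while the mesenchymal level of Postn, the source of its free RNA, was 2975 (antibody), 3691 (IgG) and 2760 CPM (Matrigel). The mesenchymal level of Pmepa1 was lower, at 462 (antibody), 584 (IgG) and 586 CPM (Matrigel). The Postn share is therefore not the share that free RNA would give for Pmepa1. In thinned mesenchymal cells the Pmepa1 share was 32.9% (antibody), 43.45% (IgG) and 41.1% (Matrigel), against 90.0% (antibody), 92.9% (IgG) and 87.8% (Matrigel) before thinning.

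Free RNA from broken cells puts transcripts of 1 class into droplets of another. Measured over 13 mesenchymal markers, macrophages held a median of 0.396% of the mesenchymal level in the antibody, 1.52% in the IgG and 0.787% in the Matrigel library, and at most 6.29% (antibody), 5.16% (IgG) and 2.35% (Matrigel), each time for Pdgfrb. Pmepa1 in macrophages was at 12.9% (antibody), 29.0% (IgG) and 4.04% (Matrigel) of its own mesenchymal level, above the highest marker in every library. At the median share, free RNA would give 1.83 (antibody), 8.86 (IgG) and 4.61 CPM (Matrigel) of Pmepa1, and at the highest share 29.1 (antibody), 30.1 (IgG) and 13.8 CPM (Matrigel). With the median amount subtracted, the IgG to Matrigel ratio of Pmepa1 in macrophages was 8.40. Tgfbi in macrophages was at 117% (antibody), 154% (IgG) and 359.9% (Matrigel) of its mesenchymal level, and Skil at 175% (antibody), 223% (IgG) and 77.3% (Matrigel). In T cells Tgfbi (antibody 32.9, IgG 28.1 and Matrigel 9.11 CPM) lay between what free macrophage RNA would give at the share of the median macrophage marker (antibody 6.63, IgG 14.9 and Matrigel 3.71 CPM) and of the highest (antibody 152, IgG 144 and Matrigel 91.9 CPM), so it was not told apart from background. In dendritic cells the median macrophage marker stood at 26.5% (antibody), 32.6% (IgG) and 5.74% (Matrigel) of its macrophage level, a share at which macrophage transcripts would give 15.8 (antibody), 55.2 (IgG) and 1.36 CPM (Matrigel) of Pmepa1.

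**Figure D3:**
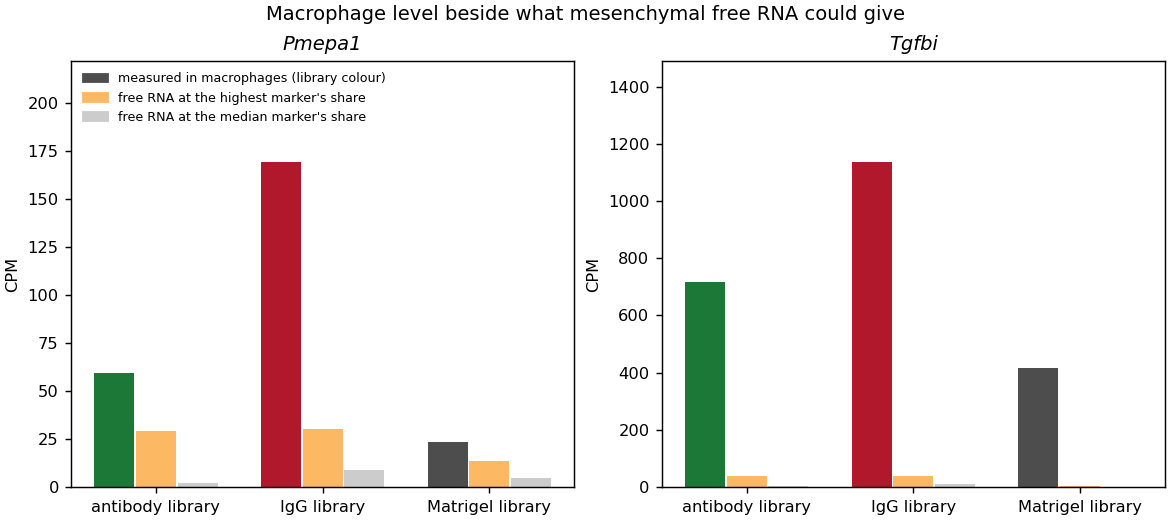
Level of Pmepa1 and Tgfbi in macrophages (CPM, bars in the colour of each library) beside the level that free mesenchymal RNA would give at the share of the highest and of the median mesenchymal marker. Measured Pmepa1 is 59.6 CPM (antibody), 169 CPM (IgG) and 23.7 CPM (Matrigel), and free RNA at the highest share would give 29.1 (antibody), 30.1 (IgG) and 13.8 CPM (Matrigel).

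Macrophages were split by detection of Arg1 (arginase), Lyve1 (a marker of resident macrophages) and Hopx, a homeodomain-only protein. Cells with Arg1 alone numbered 967 in the antibody, 1036 in the IgG and 240 in the Matrigel library, cells with Lyve1 alone 139 (antibody), 123 (IgG) and 1015 (Matrigel), and cells with Hopx alone 333 (antibody), 249 (IgG) and 761 (Matrigel). Cells with more than 1 of these genes numbered 891 (antibody), 334 (IgG) and 210 (Matrigel). Cells with none numbered 669 (antibody), 1310 (IgG) and 3328 (Matrigel), or 22.3% of antibody, 42.9% of IgG and 59.9% of Matrigel macrophages. Detection depends on depth, and median UMIs ran from 2217 to 5623 over these groups of cells. Pmepa1 was lower in the antibody than in the IgG library in each of the 5 subsets. With Arg1 alone it was at 75.8 (antibody), 194.5 (IgG) and 24.5 CPM (Matrigel). With Hopx alone it was at 33.6 (antibody), 103 (IgG) and 7.93 CPM (Matrigel), an antibody to IgG ratio of 0.327 (0.242 to 0.437) and an IgG to Matrigel ratio of 12.98 (8.57 to 20.35). In cells with Lyve1 alone, the subset with the lowest IgG level, it was at 19.97 (antibody), 32.8 (IgG) and 20.5 CPM (Matrigel), and both intervals included 1 (0.285 to 1.27 and 0.932 to 2.63). In cells with more than 1 of these genes it was at 57.9 (antibody), 274 (IgG) and 23.6 CPM (Matrigel), and in cells with none at 61.2 (antibody), 147 (IgG) and 30.3 CPM (Matrigel).

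Tgfbi was lower in antibody than in IgG cells with Arg1 alone, with more than 1 gene and with none, and nearly equal with Hopx alone. It was at 946 (antibody), 1508 (IgG) and 449 CPM (Matrigel) with Arg1 alone, an antibody to IgG ratio of 0.627 (0.605 to 0.6504), and at 850.2 (antibody), 914 (IgG) and 446.5 CPM (Matrigel) with Hopx alone, a ratio of 0.930 (0.865 to 0.9995). With Lyve1 alone the antibody cells were not lower: 522 CPM in antibody, 467 CPM in IgG and 385 CPM in Matrigel cells, a ratio of 1.12 (0.954 to 1.31). With more than 1 gene Tgfbi was at 511 (antibody), 1234 (IgG) and 410 CPM (Matrigel). With none it was at 670 (antibody), 903 (IgG) and 421 CPM (Matrigel). Skil had antibody to IgG ratios of 0.760 (0.6703 to 0.862) for Arg1 alone, 0.595 (0.501 to 0.709) for more than 1 gene, 1.13 (0.870 to 1.47) for Hopx alone and 1.49 (0.741 to 3.12) for Lyve1 alone. Whether the subsets differ from each other in these ratios was not tested.

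Tgif1 was higher in the antibody than in the IgG library in all 5 subsets, at ratios of 1.69 to 2.09, and only the interval for Lyve1 alone, with 24 antibody and 10 IgG UMIs, included 1 (0.962 to 4.89). Bhlhe40 was lowest in cells with Lyve1 alone in every library. With Hopx alone it was at 199 (antibody), 176 (IgG) and 152 CPM (Matrigel), and with Lyve1 alone at 21.4 (antibody), 36.1 (IgG) and 17.9 CPM (Matrigel). Within Arg1-only cells it was 107 CPM in antibody, 152 CPM in IgG and 152 CPM in Matrigel cells, an IgG to Matrigel ratio of 0.998 (0.803 to 1.252), and within Hopx-only cells that ratio was 1.16 (0.993 to 1.35). The other subsets had higher ratios, 2.02 with Lyve1 alone (1.19 to 3.28), 1.85 with more than 1 gene (1.46 to 2.36) and 1.44 with none (1.26 to 1.64). Over all macrophages it was 1.84, and Arg1-only cells made up 32.2% of antibody, 33.9% of IgG and 4.32% of Matrigel macrophages. Ski was lower in the antibody than in the IgG library in every subset, at ratios of 0.636 to 0.833.

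**Figure D4:**
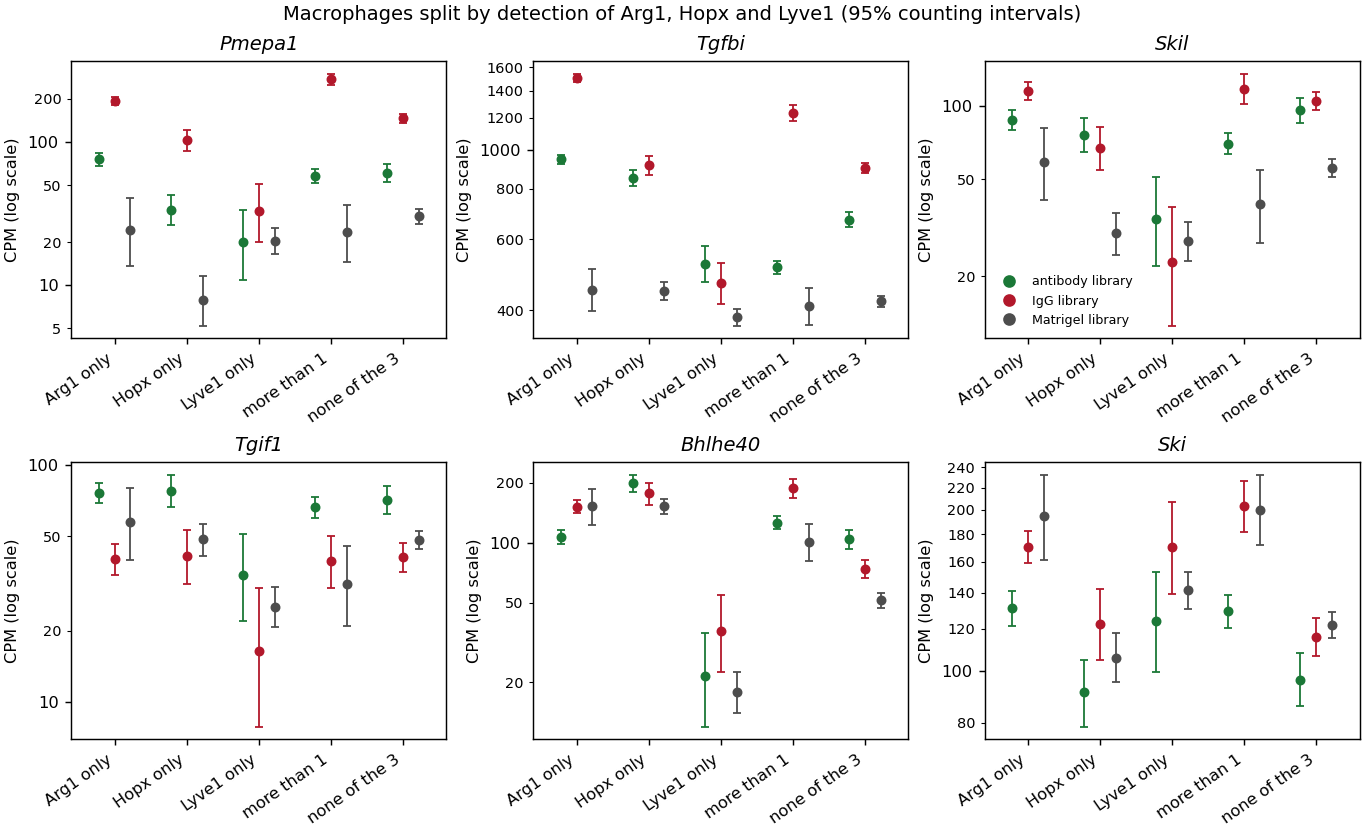
Levels (CPM, log scale) of 6 of the genes in macrophages split by detection of Arg1, Hopx and Lyve1, with 1 point per library and its 95% counting interval. Bhlhe40 is lowest with Lyve1 alone (antibody 21.4, IgG 36.1 and Matrigel 17.9 CPM), and the IgG points of Pmepa1 lie above the antibody points in all 5 subsets.

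Mesenchymal cells were split into chondrogenic cells (at least 3 UMIs of Acan and Col2a1, the cartilage proteoglycan and collagen), other cells with a detected Inhba, other cells with Pi16 or Dpp4, markers of fibroblast progenitors, and the rest. Chondrogenic cells numbered 106 in the antibody, 722 in the IgG and 0 in the Matrigel library, Inhba cells 256 (antibody), 461 (IgG) and 228 (Matrigel), Pi16 or Dpp4 cells 173 (antibody), 141 (IgG) and 1293 (Matrigel), and the rest 57 (antibody), 154 (IgG) and 461 (Matrigel). Tgfbi was highest in chondrogenic cells, at 878 CPM in the antibody and 922 CPM in the IgG library. Inhba cells had 694 (antibody), 653 (IgG) and 229 CPM (Matrigel) of it, and Pi16 or Dpp4 cells 53.1 (antibody), 90.7 (IgG) and 52.7 CPM (Matrigel). The IgG to Matrigel ratio of Tgfbi was thus 2.85 (2.65 to 3.07) among Inhba cells, 1.72 (1.45 to 2.04) among Pi16 or Dpp4 cells and 2.02 (1.80 to 2.26) among the rest, each below the 6.36 of the whole class. It was 4.68 without the chondrogenic cells.

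Bhlhe40 was likewise lowest in the Pi16 or Dpp4 cells. It was at 139 CPM in antibody and 169 CPM in IgG chondrogenic cells, 173 (antibody), 165 (IgG) and 138 CPM (Matrigel) in Inhba cells, and 48.1 (antibody), 52.0 (IgG) and 53.5 CPM (Matrigel) in Pi16 or Dpp4 cells. Its IgG to Matrigel ratio was 1.20 (1.08 to 1.33) among Inhba cells and 0.971 (0.7795 to 1.20) among Pi16 or Dpp4 cells and 1.47 (1.23 to 1.74) among the rest, against 1.98 over the class and 1.83 without chondrogenic cells. Ski ran the other way, at 74.2 CPM in antibody and 106 CPM in IgG chondrogenic cells and 143 (antibody), 197 (IgG) and 192 CPM (Matrigel) in Pi16 or Dpp4 cells. Its IgG to Matrigel ratio was 1.03 (0.920 to 1.15) among Pi16 or Dpp4 cells, 0.716 (0.647 to 0.792) among Inhba cells and 0.838 (0.717 to 0.976) among the rest. It was 0.710 without chondrogenic cells, where neither Ski nor Ldlrad4 (0.799) was past 1.5-fold.

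Pmepa1 was lower in antibody than in IgG cells of every mesenchymal subset, by less than the counting error in chondrogenic cells. It was at 461 CPM in antibody and 485 CPM in IgG chondrogenic cells, a ratio of 0.950 (0.893 to 1.01). In Inhba cells it was at 502 (antibody), 711 (IgG) and 604 CPM (Matrigel) (antibody to IgG ratio 0.706, 0.678 to 0.735), and in Pi16 or Dpp4 cells at 333 (antibody), 517 (IgG) and 609 CPM (Matrigel) (0.644, 0.585 to 0.709). In the remaining cells it was at 475 (antibody), 765 (IgG) and 507 CPM (Matrigel) (0.620, 0.544 to 0.706). The IgG to Matrigel ratio of Pmepa1 was 1.18 (1.12 to 1.24) among Inhba cells and 0.849 (0.794 to 0.907) among Pi16 or Dpp4 cells. It was 1.51 (1.40 to 1.63) among the rest, against 0.996 over the class and 1.17 without chondrogenic cells. Without chondrogenic cells the antibody to IgG ratio of Pmepa1 was 0.673, against 0.792 for the class, and that of Tgfbi was 1.002. Skil was at 21.1 CPM in antibody, 48.4 CPM in IgG and 52.6 CPM in Matrigel Pi16 or Dpp4 cells, a ratio of 0.437 (0.301 to 0.626) from 47 antibody and 95 IgG UMIs, while its ratios in the other subsets were 0.953 to 1.12. In Pi16 or Dpp4 cells the antibody to IgG ratios of Tgfbi (0.585, 0.4596 to 0.7424) and Ldlrad4 (0.4735, 0.2686 to 0.8137) were also past 1.5-fold. In the other subsets they were 0.9515 to 1.46 for Tgfbi and 1.04 to 1.73 for Ldlrad4. Tgif1 was at 1.58 (1.21 to 2.05) in Inhba cells and 1.52 (0.689 to 3.545) in Pi16 or Dpp4 cells. Among the rest Ski was at 0.609 (0.455 to 0.806) and Bhlhe40 at 0.512 (0.367 to 0.702).

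**Figure D5:**
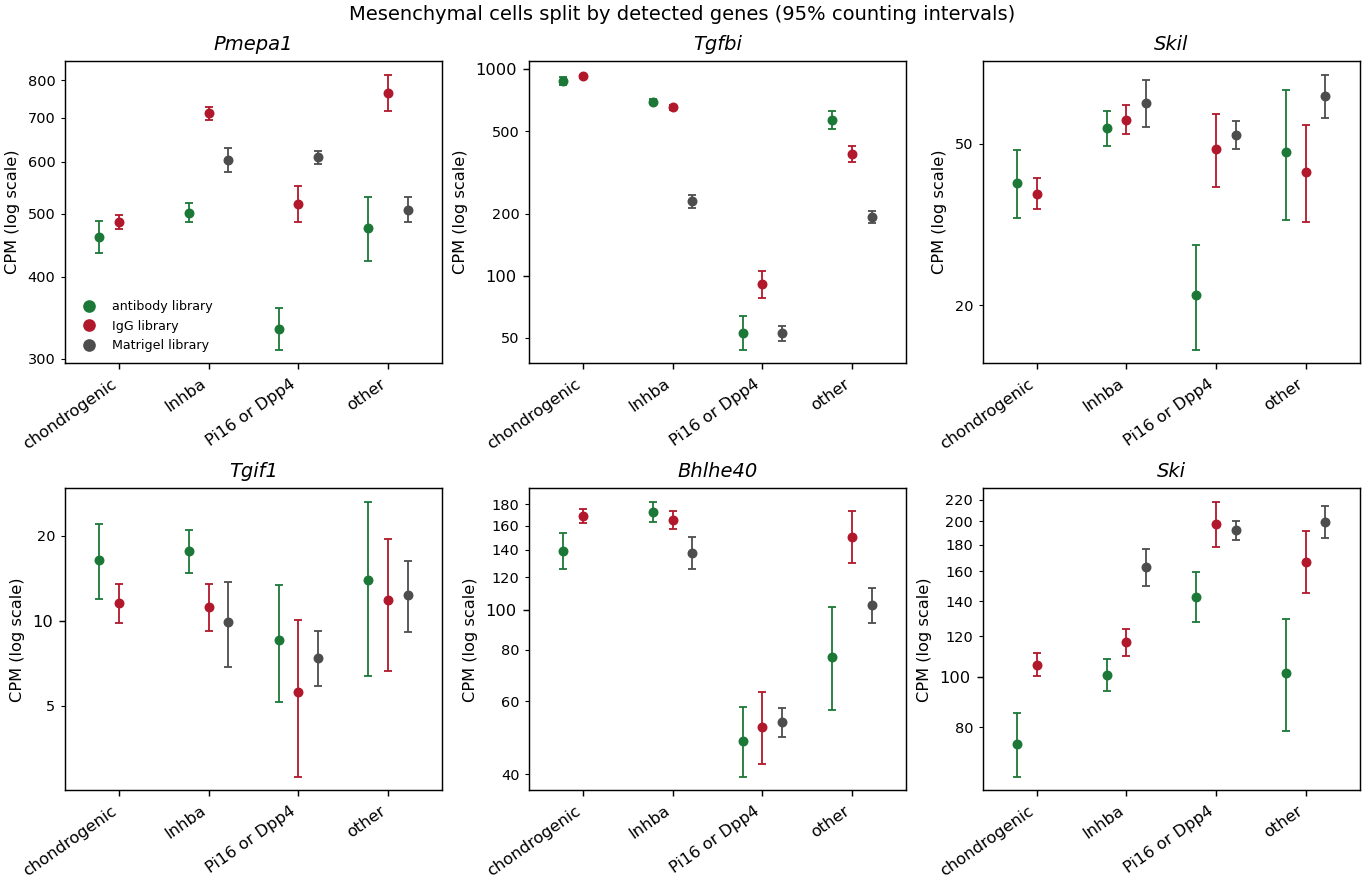
Levels (CPM, log scale) of 6 of the genes in mesenchymal cells split by detected genes, with 1 point per library and its 95% counting interval; the Matrigel library had 0 chondrogenic cells. Tgfbi and Bhlhe40 are lowest in cells with Pi16 or Dpp4 (antibody 53.1, IgG 90.7 and Matrigel 52.7 CPM, and antibody 48.1, IgG 52.0 and Matrigel 53.5 CPM), where Ski is high (antibody 143, IgG 197 and Matrigel 192 CPM).

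In dendritic cells the IgG to Matrigel comparison gave 4 genes higher (Pmepa1 1.92, Ski 1.95, Tgfbi 2.38 and Bhlhe40 3.71) and 2 lower (Skil 0.546 and Tgif1 0.606) of 6, where 41.9% of 7995 genes were past the ratio (26.3% higher, 15.7% lower). Macrophage markers were higher for 9 of 12 in the same comparison, and with macrophage transcripts subtracted as above Pmepa1 (0.516) and Ski (0.634) were lower in IgG than in Matrigel cells, Skil was at 0.252, Tgif1 at 0.435, Tgfbi at 1.59 and Bhlhe40 at 3.31. In T cells it gave 1 higher and 2 lower of 6, where 45.6% of 6658 genes were past the ratio (26.2% higher, 19.4% lower). These were Tgfbi, higher from 15 IgG UMIs and 1 Matrigel UMI and not told apart from background, Tgif1 (0.470, 0.183 to 1.35) and Bhlhe40, at 95.2 CPM in antibody, 142 CPM in IgG and 237 CPM in Matrigel T cells (IgG to Matrigel ratio 0.601, 0.380 to 0.977, from 76 IgG and 26 Matrigel UMIs).

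Within a gene, the order of levels over the 4 classes and 3 libraries differed from gene to gene. Pmepa1 was highest in mesenchymal cells of the Matrigel and IgG libraries, which did not differ beyond counting error, then in antibody mesenchymal cells, then in IgG macrophages, and lowest in Matrigel macrophages. Tgif1 had the reverse arrangement of classes: its 3 mesenchymal levels were the lowest of the 12, and each of its 8 highest levels did not differ from the next beyond counting error. Tgfbi was highest in IgG macrophages, then in IgG dendritic cells, and lowest in T cells of the 3 libraries, which did not differ among neighbours beyond counting error. Bhlhe40 was highest in antibody dendritic, IgG dendritic and Matrigel T cells, where neighbours did not differ beyond counting error, and lowest in Matrigel macrophages, dendritic cells and mesenchymal cells, whose neighbours in the order did not differ.

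Among the other genes of the pathway, the ligand gene Inhba was at 799.5 CPM in antibody, 688 CPM in IgG and 26.0 CPM in Matrigel mesenchymal cells, and at 3.62 (antibody), 7.08 (IgG) and 0.571 CPM (Matrigel) in macrophages. Of 6 measured ligand genes, 1 was higher and 2 lower in antibody than in IgG mesenchymal cells, and 3 were higher and 1 lower in IgG than in Matrigel cells, where 22.6% and 37.7% of all genes were past the ratio. Tgfbr2, the TGF-beta type II receptor, was at 340.3 (antibody), 148 (IgG) and 804 CPM (Matrigel), and Tgfbr3, the coreceptor betaglycan, at 72.1 (antibody), 30.6 (IgG) and 191 CPM (Matrigel). Both were thus higher in antibody than in IgG cells (2.30-fold and 2.36-fold) and lower in IgG than in Matrigel cells (5.43-fold and 6.24-fold). Of 6 receptor genes, 2 were higher and 1 lower in the first comparison, and 3 were lower in the second. Of 10 genes for SMADs and their ubiquitin ligases, 1 was higher and 1 lower in the first, and 2 were higher and 4 lower in the second. Smad7, the inhibitory SMAD, was at 134 CPM in antibody, 98.8 CPM in IgG and 53.8 CPM in Matrigel mesenchymal cells, and at 31.7 (antibody), 36.5 (IgG) and 8.10 CPM (Matrigel) in macrophages. In T cells, named here after its value was seen, it was at 578 (antibody), 206 (IgG) and 383 CPM (Matrigel).

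A list of 24 other SMAD2/3 target genes, Smad7 among them, was higher for 2 and lower for 3 in antibody against IgG mesenchymal cells. Its median log2 ratio was 0.06, beside -0.07 for all genes. Ctgf, a matricellular protein, was at 336 (antibody), 199 (IgG) and 196 CPM (Matrigel) and 1.69-fold higher in antibody than in IgG mesenchymal cells (1.62 to 1.76). Tagln, the actin-binding transgelin, was at 155 (antibody), 306 (IgG) and 140.3 CPM (Matrigel), and Cdkn2b, a cyclin-dependent kinase inhibitor, at 26.7 (antibody), 56.9 (IgG) and 7.06 CPM (Matrigel), so both were lower in antibody than in IgG cells (1.98-fold and 2.13-fold). The list was higher for 7 and lower for 5 in IgG against Matrigel mesenchymal cells.

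Of the same list in macrophages, 1 of 23 measured genes was higher and 13 were lower in the antibody against the IgG library, where 7.02% of all genes were higher and 12.3% lower. In IgG against Matrigel macrophages 12 of 23 were higher and 3 lower, where 12.9% of all genes were higher and 13.5% lower. Of 13 mesenchymal markers, 12 were lower in the first of these comparisons, and 6 were higher and 3 lower in the second. Their part in the list's counts was not tested. Only 6 of the list stood at 10% or more of their mesenchymal level in both libraries compared, a limit set after the values were seen. Of these 6, 1 was lower and 0 higher in antibody against IgG macrophages: the integrin gene Itgb5, at 60.35 CPM in the antibody against 110.4 CPM in the IgG library (ratio 0.547, 0.504 to 0.592). In IgG against Matrigel macrophages 3 of the 6 were higher and 0 lower: Smad7 (4.51, 3.76 to 5.43), the integrin gene Itgav (2.19, 1.95 to 2.47) and Itgb5 (1.58, 1.47 to 1.70). At the same limit all 7 genes followed here were kept in antibody against IgG macrophages, with 1 higher and 2 lower. For IgG against Matrigel macrophages 6 of the 7 were kept, with 3 higher and 0 lower. Pmepa1 was left out there, at 4.04% of its mesenchymal level in Matrigel macrophages. In antibody against IgG T cells the list of other targets went the other way, with 9 of 15 measured genes higher and 2 lower. Its median log2 ratio there was 0.75, beside -0.24 for all genes, of which 14.6% were higher and 23.6% lower. In dendritic cells of the same comparison 0 of 8 were higher and 3 lower. For IgG against Matrigel 1 of 8 was higher and 4 lower in T cells, and 4 of 8 were higher and 0 lower in dendritic cells.

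Over 32 class and subset sums of at least 30 cells, the genes whose log2(CPM + 1) pattern was most like that of Pmepa1, of 6885 genes, were Mettl1, Timp1 and Kremen1 (Pearson r 0.921, 0.918 and 0.915). Those of Tgfbi were Nrp2, Tns3 and Sdc3 (0.931, 0.928 and 0.9275), those of Tgif1 Fau, Pstpip1 and Btg1 (0.933, 0.933 and 0.927), and those of Ldlrad4 Ttc37, Setbp1 and Socs5 (0.899, 0.884 and 0.882). Bhlhe40 was most like Nfil3, Acot7 and the glucose transporter gene Slc2a1 (0.849, 0.828 and 0.814), Ski like Abcc5, Sept8 and Peak1 (0.859, 0.798 and 0.783), and Skil like Pgs1, Msn and Vasp (0.775, 0.733 and 0.698). Among the 7 themselves r was 0.805 for Pmepa1 with Ldlrad4 and -0.735 for Pmepa1 with Tgif1. These points share libraries, so the values only describe likeness.

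The paralogs Bhlhe41 and Tgif2 were counted beside their partners. Bhlhe41, a repressor closely related to Bhlhe40, was at 10.0 CPM in antibody, 51.6 CPM in IgG and 9.56 CPM in Matrigel mesenchymal cells, 5.14-fold lower in antibody than in IgG cells (4.28 to 6.204). Tgif2 was at 3.61 (antibody), 4.86 (IgG) and 3.66 CPM (Matrigel) in the same cells, an antibody to IgG ratio of 0.742 (0.518 to 1.05). Its ratio was 1.825 (1.11 to 3.08) in macrophages, from 56 antibody and 24 IgG UMIs. It was 2.32 (0.722 to 8.65) in dendritic cells, from 10 and 5 UMIs, and 1.75 (0.864 to 4.01) in T cells, from 61 and 9 UMIs. Bhlhe41 in macrophages was at 0.410 (0.306 to 0.546), from 75 antibody and 143 IgG UMIs.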

How the data were processed

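The 3 libraries, 1 per group, are droplet libraries of single cells (10x 3' v3), per the labels' protocols. Cell Ranger 3.0.2 and mm10 are listed in the submitters' processing notes. Neither the annotation release nor the barcode calling settings are given in the sources used here. The authors deposited raw UMI counts per gene and barcode as whole numbers, per the file headers. The barcode and gene lists carry no measurement.

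Cells needed at least 300 genes and 500 UMIs and at most 15% mitochondrial UMIs. Scrublet (scanpy 1.11.5, seed 1) marked under 0.5% of cells with its own threshold, so cells were removed from the top of the score at 0.8% per 1000 cells (285 antibody, 284 IgG and 681 Matrigel cells). Below 1% collagen UMIs, T cells had at least 2 of 6 T cell genes and neither Csf1r nor Adgre1, dendritic cells at least 2 of 8 dendritic genes and no Adgre1, and macrophages Csf1r or Adgre1. Of the low-collagen cells with Csf1r or Adgre1, 41, 63 and 10 went to the dendritic class. In all, 1149, 808 and 800 cells stayed without a class.

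UMIs were summed per class and library and scaled to CPM. Levels have exact Poisson, shares Clopper-Pearson and ratios exact conditional binomial 95% intervals (scipy 1.17.1). Scripts were tested on simulated data. All 7 genes are named. Genes of other lists were named by the 3 highest and 3 lowest mesenchymal ratios past 1.5-fold at 50 CPM or more. Smad7 in antibody against IgG cells, Inhba in macrophages, Itgb5, Itgav and Tgif2 lie outside this rule. They, and Bhlhe41 in macrophages, were named after their values were seen. The genes and lists were chosen with earlier results of these data known. Alternatives covered filters, doublets, the collagen limit, scaling, cell weights and thresholds. Promoter windows came from RefSeq tables, and 3 of the 7 genes had one. One gene of the list of other targets is not reported here.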

Additional observations from a re-analysis of the deposited data

Results flagged for a closer look

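The direction of 3 genes in the IgG against the Matrigel library was not the same in every cell class. Skil was 2.31-fold higher in macrophages (102 CPM in the IgG, 44.3 CPM in the Matrigel library) and lower in dendritic cells (60.7 CPM in the IgG, 111 CPM in the Matrigel library, ratio 0.546). Ski was 1.95-fold higher in dendritic cells (64.95 CPM in the IgG, 33.3 CPM in the Matrigel library, 61 and 18 UMIs) and lower in mesenchymal cells (ratio 0.634); with macrophage transcripts subtracted it was lower in dendritic cells too (also 0.634). Bhlhe40 was higher in mesenchymal cells (1.98-fold), macrophages (1.84-fold) and dendritic cells (3.71-fold) and lower in T cells (ratio 0.601, 76 and 26 UMIs). With 1 library per group the difference between classes was not tested for any of these genes. Dendritic cells of the IgG library held 6599 CPM of macrophage markers, against 3775 CPM in the Matrigel library. With macrophage transcripts subtracted, the dendritic ratios were 0.252 for Skil and 3.31 for Bhlhe40.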

How the results depend on the processing

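No paired analysis was possible because each group had 1 library and no result came from a test. Over 208 alternative counts of genes past the threshold, 170 stayed within 1.5 times the reported count and 38 did not. Of 567 alternative ratios of single genes, 55 moved beyond the counting interval and 3 called ones reversed. All 3 were in dendritic cells with macrophage transcripts subtracted: Pmepa1 in antibody against IgG (1.54), and Pmepa1 (0.516) and Ski (0.634) in IgG against Matrigel. That setting gave 3 higher and 1 lower dendritic genes in the first comparison, 2 higher and 4 lower in the second, and 2 higher T cell genes in antibody against IgG. Dendritic cells express some of these markers themselves, so it may take away too much.

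In antibody against IgG macrophages, the number lower was 1 (Pmepa1) under median-of-ratios scaling; at 2-fold it was 1 lower and 0 higher. Pmepa1 stayed at ratios of 0.347 to 0.388 over 11 alternatives there, and at 6.38 to 8.40 in IgG against Matrigel macrophages. In dendritic cells the number lower was 1 with equal weight per cell, and at 2-fold it was 0 in both directions. In T cells the number lower was 3 with every barcode kept or no doublets removed. It was 2 at either collagen limit (0.5% or 2%), with equal weight per cell, without shared barcodes and with free RNA subtracted. It was 0 under both other scalings, at 2-fold and without the 10 cells with most UMIs of a gene, where the number higher was 4. Tgfbi was among these 4. The 10 IgG cells left out held all 15 of its IgG UMIs, so it was counted as higher against 0.

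In IgG against Matrigel mesenchymal cells, the number lower was 1 with equal weight per cell, 0 without chondrogenic cells and 0 at 2-fold, where the number higher was 1. In dendritic cells the number lower was 1 with equal weight per cell or at least 50 UMIs, and at 2-fold 2 were higher and 0 lower. In T cells the number higher was 2 with every barcode kept or no doublets removed, 3 without the 10 top cells (0 lower) and 0 at 50 UMIs (1 lower), and the number lower was 1 at 2-fold. Leaving out 10 cells takes a large part of the 68 Matrigel T cells. It took all Matrigel T cell UMIs of Pmepa1 and Skil, which were then counted as higher against 0. Leaving out shared barcodes and subtracting free RNA or macrophage transcripts were chosen after seeing the data.

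Counting intervals leave out the variation between animals and preparations, which 1 library per group cannot give. Classes rest on detected genes, and so on depth: mesenchymal medians were 19186, 17191 and 8752 UMIs in the antibody, IgG and Matrigel libraries. Ldlrad4 outside mesenchymal cells, and all genes in T cells of the Matrigel library, rest on few UMIs.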
